A study of Homo sapiens with 20 samples.

Results

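EHMT1 (GLP), EHMT2 (G9a), WIZ, ZNF644 and CDYL, 2 histone methyltransferases and 3 proteins that bind them, were followed by RNA-seq in LNCaP cells. The 5 genes were taken by symbol from both count tables, which list 57773 genes each, and all 5 were found in both and passed the filter on low counts in every comparison. EHMT1 and EHMT2 form a heterodimer that places monomethyl and dimethyl marks on lysine 9 of histone H3, a modification linked to gene silencing, and both enzymes also methylate other proteins. WIZ and ZNF644 are zinc-finger proteins that bind the dimer and help to bring it to chromatin, and CDYL is a chromodomain protein that binds methylated H3K9 and links the enzymes to repressor complexes such as that of REST. In prostate cancer cells EHMT1 and EHMT2 have been studied both as corepressors and as activators of transcription.

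LNCaP is a prostate adenocarcinoma line. In the siRNA experiment, LNCaP cells were transfected for 2 days with 20 nM of a predesigned siRNA pool, either siEHMT1 or the nontarget control siNTC, with 2 samples in each group. In the stable-line experiment, LNCaP cells carried a lentiviral tetracycline-inducible construct (pLIX_403) with an EHMT1 open reading frame, in the WT, K450R, K451R or K450RK451R form, and received 0.25 µg/mL doxycycline for 2 days (Dox) or vehicle (Veh), which a label field also calls untreated. In the mutant names, K450R and K451R stand for the lysine at that position of EHMT1 replaced by arginine, and K450RK451R carries both changes. All 4 lines share the LNCaP background, puromycin selection, growth in tetracycline-free serum and the endogenous EHMT1 gene. Each form was represented by 1 stable line, and no line without an EHMT1 insert was analysed here, so the action of doxycycline itself and that of the induced EHMT1 cannot be told apart. The deposited values were raw counts on Ensembl genes, and levels are given in CPM, counts scaled to library size with TMM factors computed within each experiment.

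Total counts were 5593400 to 12438006 per siRNA sample. The 16 stable-line columns, numbered 1 and 2 in each of 8 conditions, differed within a condition by no more than counting noise (chi-square per degree of freedom of 0.995 to 1.02 over genes), so each pair was summed and counted as 1 sample, with 8436791 to 12407739 counts per condition. The siNTC pair (61.6) and the siEHMT1 pair (13.4) differed by more than counting noise, and were kept as separate samples. Without the ribosomal RNA-like pseudogenes AC010970.2 and CTD-2328D6.1, chosen after their values were seen, these figures were 6.58 and 6.17. Nothing in the labels says that the siRNA samples came from separate cultures, so p-values measure the spread between these samples, which may be technical. The LNCaP markers KLK3, KLK2, TMPRSS2, FOLH1, HOXB13 and FOXA1 were expressed in both experiments, whereas the leukocyte, neuroendocrine and basal markers PTPRC, CHGA, TP63 and KRT5 had no reads in siNTC or Veh and the stromal markers COL1A1 and VIM were detected.

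The lysines that were mutated lie next to each other in EHMT1, and the reference sequence around them is shown because they are the only designed difference between the inserts. EHMT1 (ENSG00000181090) occupies chr9:140513444-140764468 on the plus strand of GRCh37. The codons of these lysines lie in exon 8 of the canonical transcript, at chr9:140648722-140648724 and chr9:140648725-140648727, and both read aag, a lysine codon. The stretch of coding exon from chr9:140648647 to chr9:140648743, on the plus strand, is written 5′ to 3′ with the 2 lysine codons in capitals.
EHMT1 exon 8: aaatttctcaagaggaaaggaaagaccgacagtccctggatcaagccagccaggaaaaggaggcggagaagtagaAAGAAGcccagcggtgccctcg
The sequence of the inserted open reading frame was not used here. The counts are per gene, and reads of the insert and of endogenous EHMT1 were therefore added together.

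The other genes are protein-coding and lie elsewhere in the genome. EHMT2 (ENSG00000204371) is at chr6:31847536-31865475 on the minus strand. WIZ (ENSG00000011451) is at chr19:15530789-15560767 on the minus strand. ZNF644 (ENSG00000122482) is at chr1:91380855-91487829 on the minus strand, and CDYL (ENSG00000153046) is at chr6:4706393-4955785 on the plus strand. Further annotated genes in the tables overlap a member, and reads of such pairs could be mixed, because the strand setting of the counting is not given in the sources used here. SETP5, RP11-188C12.2, MIR602 and MIR1470 had 0 counts in every column. RP11-188C12.3, which overlaps the end of EHMT1 on the opposite strand, had 1 and 2 counts in the WT Veh columns and 0 elsewhere. EHMT2-AS1, on the strand opposite to EHMT2, had 0 to 9 counts per column. RP3-430A16.1, within CDYL, had 2 counts in 1 K451R Dox column and 0 elsewhere.

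Before treatment the methyltransferases stood above their partners in level per length of transcript. In the siNTC samples the level per kb of canonical transcript was 16.8 ± 0.577 CPM per kb for EHMT1 and 15.6 ± 0.565 for EHMT2 (SD, n = 2). ZNF644 followed with 10.6 ± 2.47, CDYL with 6.75 ± 0.663 and WIZ with 5.30 ± 0.348 CPM per kb (SD, n = 2). Neighbours in this order did not overlap between the 2 samples, although the lowest EHMT1 value, 16.4 CPM per kb, was close to the values of EHMT2. In Veh the order was EHMT2 with 21.4 ± 0.706, EHMT1 with 15.8 ± 1.51, CDYL with 8.67 ± 0.185, ZNF644 with 8.58 ± 0.573 and WIZ with 5.76 ± 0.937 CPM per kb (SD, n = 4 lines). CDYL and ZNF644 overlapped there (8.51 to 8.89 and 8.0 to 9.37 CPM per kb). The place of EHMT1 in the order depends on the length used. Its annotated exons merge to 22.2 kb, against 5.10 kb for the canonical transcript, and per kb of merged exon EHMT1 was the lowest of the 5 genes, with 3.86 ± 0.133 in siNTC (SD, n = 2) and 3.62 ± 0.347 in Veh (SD, n = 4). The 2 experiments were separate tables with separate scaling, and whether a difference in level between siNTC and Veh belongs to the cells or to the experiment cannot be told apart.

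**Figure D1:**
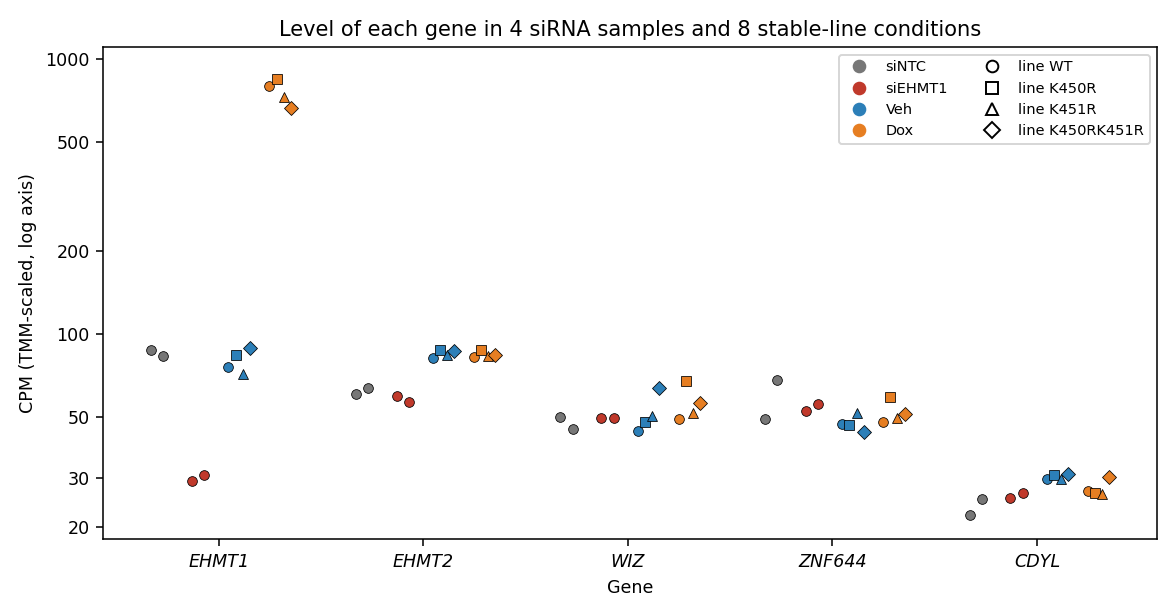
Level of each gene in CPM (log axis) in every siRNA sample and stable-line condition, with colour for the treatment and marker shape for the stable line. EHMT1 lies at 29.2 and 30.7 with siEHMT1 and between 663 and 842 with Dox, whereas the 4 other genes stay between 22.0 and 87.9 CPM in all samples.

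Silencing of EHMT1 asks whether its partners change when EHMT1 mRNA is lowered. EHMT1 was 2.86-fold lower, and none of the other 4 genes passed the test of edgeR, nor did any with DESeq2 or limma-voom. DESeq2 gave no adjusted p for CDYL, whose unadjusted p was 0.462 by DESeq2. With every sample in the fit, none of the 4 had an unadjusted p under 0.05, which 9.55% of all genes tested had. EHMT1 was at 87.8 and 83.6 CPM in the siNTC samples and at 29.2 and 30.7 CPM in the siEHMT1 samples. The groups were far apart relative to the difference within each. In bulk RNA, a loss in every cell and a loss in part of the cells cannot be told apart. This was a log2 fold change of −1.51 (SE 0.11, adjusted p = 1.48e-07 by the quasi-likelihood test of edgeR, with p-values adjusted by Benjamini-Hochberg over 14532 genes). EHMT1 had the smallest p of all genes tested, and it ranked 57th by the size of the change. In all, 19 genes (0.131% of those tested) were called at an adjusted p under 0.05, of which 9 were higher and 10 lower with siEHMT1. With upper-quartile normalization the split was 8 higher and 5 lower, and with DESeq2 2 higher and 10 lower.

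EHMT2, the catalytic partner of EHMT1, was at 60.5 and 63.6 CPM with siNTC and at 59.5 and 56.8 CPM with siEHMT1. The siEHMT1 values were the lower ones, without overlap, but 39.7% of all genes tested showed no overlap between 2 and 2 samples. Its log2 fold change of −0.09 (95% interval −0.31 to 0.12, adjusted p = 0.831 by edgeR's test) did not pass, and the interval spans from 0.807 to 1.09 of the siNTC level.

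Among the zinc-finger partners, WIZ was at 49.9 and 45.5 CPM with siNTC and at 49.7 and 49.4 CPM with siEHMT1, so the groups overlapped. Its log2 fold change was 0.05 (95% interval −0.18 to 0.29, adjusted p = 0.922 by edgeR's test). ZNF644 was at 49.0 and 68.4 CPM with siNTC and at 52.5 and 55.8 CPM with siEHMT1. Both siEHMT1 values lay between the siNTC values, which were themselves 1.39-fold apart. The log2 fold change of ZNF644 was −0.11 (95% interval −0.38 to 0.16, adjusted p = 0.841 by the same test), and without the siNTC sample numbered 2 it was 0.14. That sample had the lowest depth of the siRNA samples, 5593400 counts, and AC010970.2 was at 92731 CPM in it, against 309 to 8152 CPM in the 3 others. The part of either in the ZNF644 values was not tested.

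CDYL, the chromodomain reader, was at 22.0 and 25.3 CPM with siNTC and at 25.4 and 26.6 CPM with siEHMT1. The siEHMT1 values lay above both siNTC values, in a comparison where 39.7% of all genes did not overlap, and the margin between the groups was smaller than the gap within siNTC. CDYL had a log2 fold change of 0.14 (95% interval −0.15 to 0.44, adjusted p = 0.797 by edgeR's test), which was 0.04 without siNTC 1 and 0.24 without siNTC 2. CDYL had the fewest reads of the 5 genes, 128 to 333 in the siRNA samples, and its interval was the widest.

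Induction with Dox asks whether the partners change when EHMT1 is raised from an insert. The fit averages over lines that carry the WT form or a lysine mutant. EHMT1 rose over the 4 lines by the largest fold of the 14105 genes tested, and none of the other 4 genes passed the test of edgeR, nor did any with DESeq2 or limma-voom. In this fit none of the 4 had an unadjusted p under 0.05, against 14.4% of all genes tested. Without the K450RK451R line edgeR's test gave WIZ an unadjusted p of 0.0190, where 1658 of 13987 genes fell under 0.05. With the 16 columns as separate samples ZNF644 (0.0264) and CDYL (0.0420) fell under 0.05 by edgeR's test, as did 3647 of 12673 genes. In Veh, EHMT1 was at 76.3 CPM in WT, 84.2 in K450R, 71.7 in K451R and 88.9 in K450RK451R. In Dox it was at 797, 842, 725 and 663 CPM in the same order. The Dox values lay far above the Veh values in every line, a separation without overlap that 4.59% of all genes tested had. In the fit EHMT1 had a log2 fold change of 3.23 (SE 0.07, 95% interval 3.09 to 3.38, or 8.52-fold to 10.4-fold, adjusted p = 1.02e-23 by edgeR's test with line as a block). At an adjusted p under 0.05, 298 genes (2.11% of those tested) were called, 85 higher and 213 lower with Dox, and with upper-quartile normalization the split was 116 higher and 182 lower.

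The EHMT1 ratio of Dox to Veh was close to 10 in 3 lines and lower in the double mutant. Within a line there is 1 sample a condition and no test, so the ratio of CPM is given with an exact binomial 95% interval, which covers counting error only. Dox over Veh was 10.4 (9.74 to 11.2) in WT, 10.0 (9.24 to 10.8) in K450R and 10.1 (9.30 to 11.0) in K451R. In K450RK451R it was 7.46 (6.95 to 8.0), and that interval did not overlap the others. With library totals in place of TMM the ratio was 8.20 in K450RK451R, against 10.7 in WT, 10.2 in K450R and 11.1 in K451R. How many of all genes had such a gap between lines was not counted. K450RK451R had both the highest EHMT1 level of the 4 lines in Veh and the lowest in Dox. The gain in EHMT1 from Veh to Dox was 574 CPM in that line, against 721 in WT, 758 in K450R and 653 in K451R. A change past 2-fold in either direction was rare in all lines, at 0.12% of genes in WT, 0.127% in K450R, 0.358% in K451R and 0.316% in K450RK451R.

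**Figure D2:**
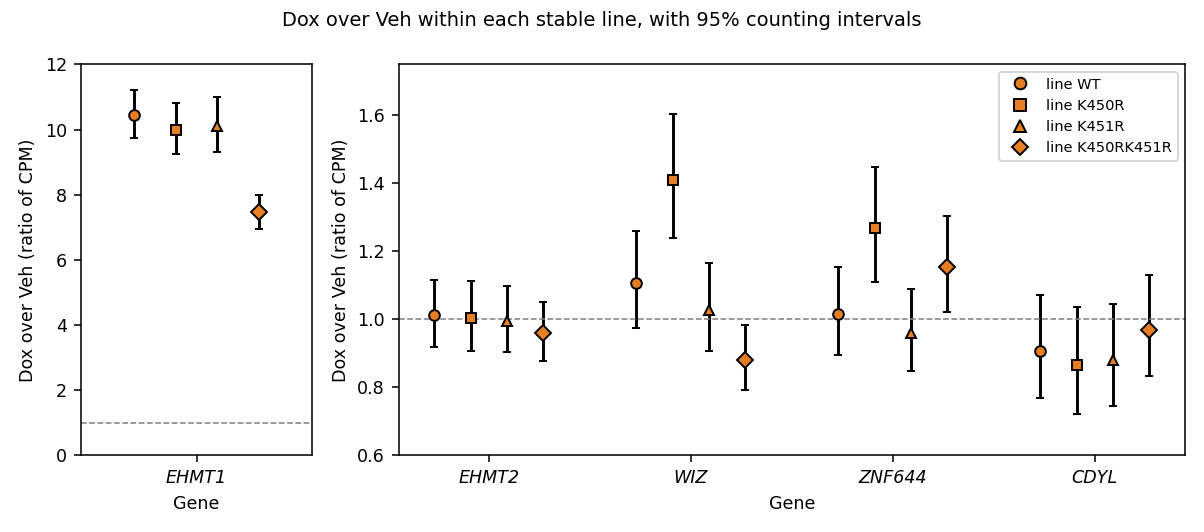
Ratio of CPM in Dox to CPM in Veh for each gene (left panel EHMT1, right panel the 4 other genes) in each stable line, with 95% counting intervals and a dashed line at 1. EHMT1 lies between 7.46 and 10.4, and among the other genes WIZ in K450R is highest at 1.41.

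EHMT2 had the smallest fold between its highest and lowest values over the 8 conditions of the 5 genes. It was at 81.7, 87.6, 83.9 and 87.2 CPM in Veh and at 82.7, 87.9, 83.5 and 83.8 CPM in Dox (WT, K450R, K451R and K450RK451R). The groups overlapped almost fully, and the lowest and highest of the 8 values came from Veh in WT and Dox in K450R. EHMT2 had a log2 fold change with Dox of −0.01 (95% interval −0.14 to 0.12, adjusted p = 0.967 by edgeR's test), or 0.993 of the Veh level with an interval from 0.907 to 1.09. Within lines the ratio ran from 0.961 in K450RK451R to 1.01 in WT, and each line's counting interval included 1. With library totals in place of TMM the ratio was above 1 in every line, from 1.02 in K450R to 1.09 in K451R, with 1.06 in K450RK451R.

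WIZ did not pass the test with Dox, and its level differed between lines. In Veh it was at 44.6 CPM in WT, 48.0 in K450R, 50.6 in K451R and 63.8 in K450RK451R, and in Dox at 49.4, 67.6, 51.9 and 56.2 CPM. The groups overlapped, and the highest line was K450RK451R in Veh but K450R in Dox. For WIZ the log2 fold change with Dox was 0.12 (95% interval −0.06 to 0.29, adjusted p = 0.590 by edgeR's test). The ratio of Dox to Veh for WIZ was 1.41 (1.24 to 1.6) in K450R, 1.11 (0.974 to 1.26) in WT, 1.03 (0.906 to 1.16) in K451R and 0.881 (0.791 to 0.982) in K450RK451R. Hence the line with the largest WIZ ratio and the line with the smallest had counting intervals that both excluded 1, on opposite sides, and with library totals in place of TMM the ratio in K450RK451R was 0.969. A change of at least 0.32 on the log2 scale in either direction was seen in 14.3% of genes in K450R, WIZ and ZNF644 among them. In WT (11.1% of genes), K451R (15.9%) and K450RK451R (18.9%) EHMT1 was the member with a change of that size under TMM scaling. With library totals ZNF644 also had such a change in K450RK451R, at a ratio of 1.27. Without the K450R line the log2 fold change of WIZ over the remaining lines was −0.01.

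The spread of WIZ among untreated lines was the largest of the 5 genes. Its highest Veh level was 1.43 times the lowest, and the Poisson 95% interval in K450RK451R (58.9 to 69.0 CPM) lay above that in WT (40.8 to 48.5 CPM). A spread of at least 0.32 on the log2 scale among Veh lines was common, at 37.8% of genes whose mean count reached 100. EHMT1 spread by 1.24-fold in Veh, ZNF644 by 1.17-fold, EHMT2 by 1.07-fold and CDYL by 1.05-fold. In Dox a spread of that size was found for 46.6% of genes, and for WIZ (1.37-fold) and EHMT1 (1.27-fold) among the 5.

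ZNF644 was at 47.3, 46.6, 51.9 and 44.3 CPM in Veh and at 48.1, 59.1, 49.8 and 51.1 CPM in Dox (WT, K450R, K451R and K450RK451R). The groups overlapped, and the highest value was K450R in Dox, as for WIZ. Over the 4 lines the log2 fold change of ZNF644 was 0.13 (95% interval −0.04 to 0.29, adjusted p = 0.499 by edgeR's test). ZNF644 had a Dox over Veh ratio of 1.27 (1.11 to 1.45) in K450R and 1.15 (1.02 to 1.30) in K450RK451R. In WT and K451R the counting intervals (0.894 to 1.15 and 0.847 to 1.09) included 1. With library totals in place of TMM the ratio of ZNF644 was above 1 in every line, from 1.04 in WT to 1.29 in K450R. It was 1.27 in K450RK451R with that scaling.

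CDYL was lower with Dox in 4 of 4 lines, and did not pass the test. It was at 29.8, 30.7, 29.9 and 31.1 CPM in Veh and at 27.0, 26.6, 26.4 and 30.2 CPM in Dox (WT, K450R, K451R and K450RK451R). The Dox value of K450RK451R lay within the range of Veh, and the 3 other Dox values lay below it. Of all genes tested, 10.1% were lower with Dox in all lines. The log2 fold change of CDYL was −0.14 (95% interval −0.33 to 0.05, adjusted p = 0.521 by edgeR's test). Its within-line ratios were 0.908 in WT, 0.865 in K450R, 0.882 in K451R and 0.970 in K450RK451R, and every counting interval included 1. With library totals in place of TMM scaling the ratio of CDYL in K450RK451R was 1.07.

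The mutants were compared with WT to see whether the Dox effect on the 5 genes differed. The test averages the 3 mutant lines, so a difference present in K450RK451R alone would be diluted. In simulated data it recovered 41.3% of 104 genes changed by 1 log2 unit. For EHMT1 itself it compares how far reads of the insert and the endogenous gene rose together. For none of the 5 genes did the Dox effect in the 3 mutant lines pass the test of a difference from WT, where 23 genes in all (0.163% of those tested) were called, 1 higher and 22 lower. With all 4 lines in the fit, none of the 5 had an unadjusted p under 0.05 by edgeR, against 7.1% of genes. Without K450R or without K451R, EHMT1 fell under 0.05, as did 1287 of 14431 and 840 of 14132 genes tested. DESeq2 did not call EHMT1 (adjusted p = 0.901). It gave the other members no adjusted p and so could not call them, and their unadjusted p was 0.632 or more by DESeq2. The difference in log2 fold change, mutants minus WT, was −0.20 for EHMT1 (95% interval −0.47 to 0.06, adjusted p = 0.797 by edgeR's test of the interaction). Without the K450RK451R line it was −0.05 (adjusted p = 0.974), and without K450R or K451R it was −0.28 (adjusted p = 0.376 and 0.750, by the same test). The difference was −0.04 for EHMT2 (−0.33 to 0.26), −0.04 for WIZ (−0.44 to 0.35), 0.14 for ZNF644 (−0.23 to 0.50) and 0.00 for CDYL (−0.44 to 0.43), with adjusted p from 0.925 to 0.999 by the same test. WT is a single line, whose spread was assumed to be like that of the mutants.

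**Figure D3:**
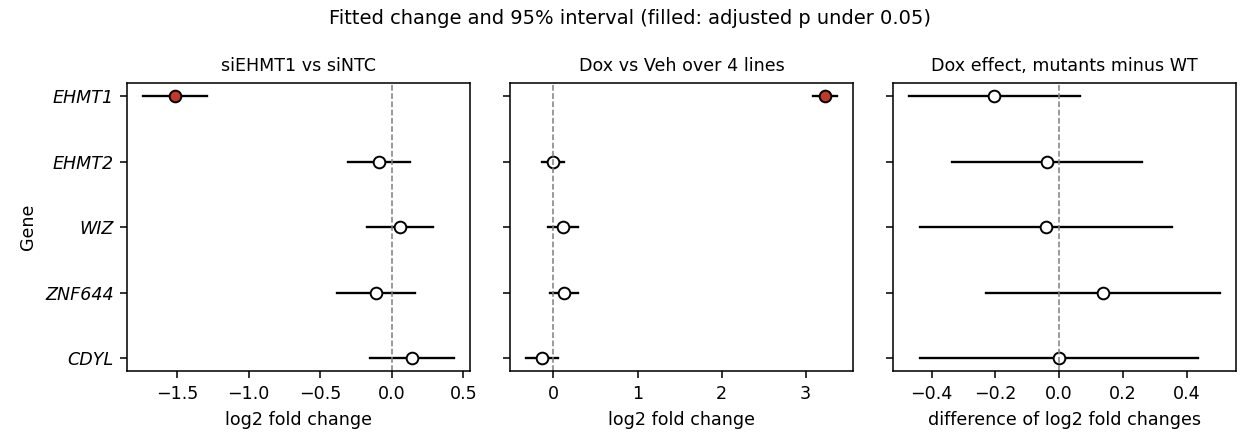
Fitted log2 fold change (points) and 95% interval (lines) of each gene for siEHMT1 against siNTC, Dox against Veh over 4 lines, and the Dox effect in the mutants minus that in WT. EHMT1 alone passes in the siRNA comparison (−1.51) and in the Dox comparison (3.23), and no gene passes in the comparison of mutants with WT.

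The ratio of EHMT1 to EHMT2 reads, which does not depend on library size, gives the balance of the dimer's transcripts in each sample. The ratio was 1.45 and 1.31 in siNTC and 0.491 and 0.541 in siEHMT1. In Veh it was 0.934 in WT, 0.962 in K450R, 0.855 in K451R and 1.02 in K450RK451R. In Dox it was 9.63, 9.58, 8.69 and 7.90 in the same order. The treatments thus moved the balance in opposite directions, and the Dox ratio of K450RK451R had the lowest value of the 4 lines (interval 7.42 to 8.43). That interval overlapped the one of K451R (8.14 to 9.27) and lay below those of WT (8.93 to 10.4) and K450R (8.92 to 10.3). Per kb of canonical transcript the ratio was 1.13 and 1.03 in siNTC, 0.384 and 0.422 in siEHMT1, 0.668 to 0.795 in Veh and 6.17 to 7.52 in Dox. The Dox values divide reads of the inserted open reading frame by the length of the endogenous transcript. Per kb they are therefore not on the same footing as those of siNTC and Veh. For the partners, the reads for each EHMT2 read in Dox were 0.597 to 0.769 for WIZ, 0.582 to 0.672 for ZNF644 and 0.302 to 0.360 for CDYL, against 0.545 to 0.731, 0.508 to 0.619 and 0.351 to 0.365 in Veh. These ranges overlapped for each partner, and they are ratios per gene, not per length.

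**Figure D4:**
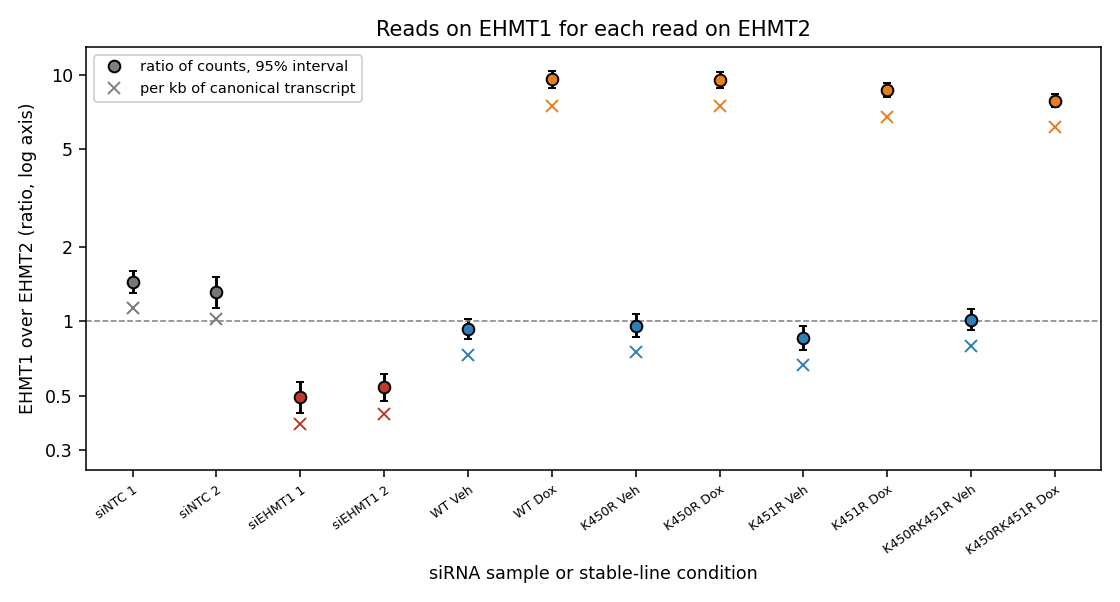
Reads on EHMT1 for each read on EHMT2 (log axis) in every siRNA sample and stable-line condition, with 95% counting intervals. Crosses give the same ratio per kb of canonical transcript, and the dashed line marks 1. The ratio lies at 0.491 and 0.541 with siEHMT1, from 0.855 to 1.02 in Veh and from 7.90 to 9.63 in Dox.

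Genes linked by function to EHMT1 and EHMT2 were examined in 8 further lists. Besides complex partners, these hold other H3K9 enzymes, among them demethylases that remove the mark, and also germline and serine synthesis genes. In the siRNA comparison, none of the 63 genes tested in these lists passed the test with edgeR, DESeq2 or limma-voom. An unadjusted p under 0.05 was found by edgeR for 4 of them, ATF7IP, HDAC2, REST and YAF2, a smaller share than the 9.55% of all genes tested. The E2F6 and PCGF6 complex, a repressor that contains the EHMT dimer, had 12 of 12 genes tested and a median log2 fold change of −0.01, with YAF2 the farthest from 0 (0.59, adjusted p = 0.519 by edgeR's test). The CtBP and REST-CoREST corepressors had 12 of 14 tested and a median of 0.00, with REST, the neuronal gene repressor, farthest from 0 (−0.29, adjusted p = 0.319). Over all genes the median was 0.00. Among readers and factors that link the enzymes to DNA methylation, ATF7IP was farthest from 0 (−0.36, adjusted p = 0.282), and among other zinc-finger adaptors ZNF462 was (0.22, adjusted p = 0.528). Values of −0.25 for SUV39H2, an H3K9 methyltransferase, −0.31 for the H3K9 demethylase KDM3A, 0.69 for MAGEA1 and 0.15 for SHMT1 were the farthest from 0 in the remaining lists, with adjusted p of 0.564 to 0.656 by edgeR's test.

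With Dox, 2 of the 62 genes tested passed by edgeR (KDM3A alone by DESeq2), and 10 had an unadjusted p under 0.05, shares close to the 2.11% and 14.4% of all genes tested. KDM3A, which removes methyl groups from H3K9, was at 158 to 174 CPM in Veh and at 117 to 150 CPM in Dox. It was lower in 4 of 4 lines, as were 10.1% of all genes tested, and its groups did not overlap, as for 4.59% of genes, with a log2 fold change of −0.32 (SE 0.07, adjusted p = 0.00608 by edgeR's test). The other 8 of 9 H3K9 demethylases tested did not pass, and the median of the list was −0.10 against 0.00 over all genes. Without the K450RK451R line KDM3A no longer passed (−0.24, adjusted p = 0.0806). PSAT1, an enzyme of serine synthesis, a pathway linked to EHMT2 in other cancer cells, was at 53.6 to 79.2 CPM in Veh and at 67.8 to 98.1 CPM in Dox. PSAT1 was higher in 4 of 4 lines, as were 10.7% of all genes tested, although the groups overlapped, with a log2 fold change of 0.29 (SE 0.07, adjusted p = 0.0275 by edgeR's test). It did not pass without the K450R line (0.26, adjusted p = 0.189) or the K451R line (0.23, adjusted p = 0.291). The other 5 serine synthesis genes did not pass, and the median of the list was 0.12.

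No other list had a gene that passed with Dox, and none of the 62 genes passed in the test of mutants minus WT (8 had an unadjusted p under 0.05 by edgeR, against 7.1% of all genes tested, and 0 by DESeq2). The genes farthest from 0 were E2F6 (−0.44, adjusted p = 0.536), ZNF217 (−0.16, adjusted p = 0.180), ZNF518A (0.37, adjusted p = 0.0937), UHRF1 (0.17, adjusted p = 0.678), SUV39H1 (0.23, adjusted p = 0.460) and TDRD1 (1.27, adjusted p = 0.109), all by edgeR's test. TDRD1, a germline gene, was at 0.101 to 1.73 CPM in Veh and at 1.32 to 2.67 CPM in Dox, near the detection floor. Of 15 germline genes, 7 were tested with siEHMT1 and 6 with Dox, and the others were too low. Among the LNCaP markers, FOXA1, TMPRSS2 and HOXB13 rose with Dox, by log2 fold changes of 0.36, 0.22 and 0.19 (adjusted p = 0.000418, 0.0177 and 0.0492 by edgeR's test), whereas KLK3 (0.02), KLK2 (−0.11) and FOLH1 (0.09) did not pass. Their part in the changes of KDM3A and PSAT1 was not tested.

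**Figure D5:**
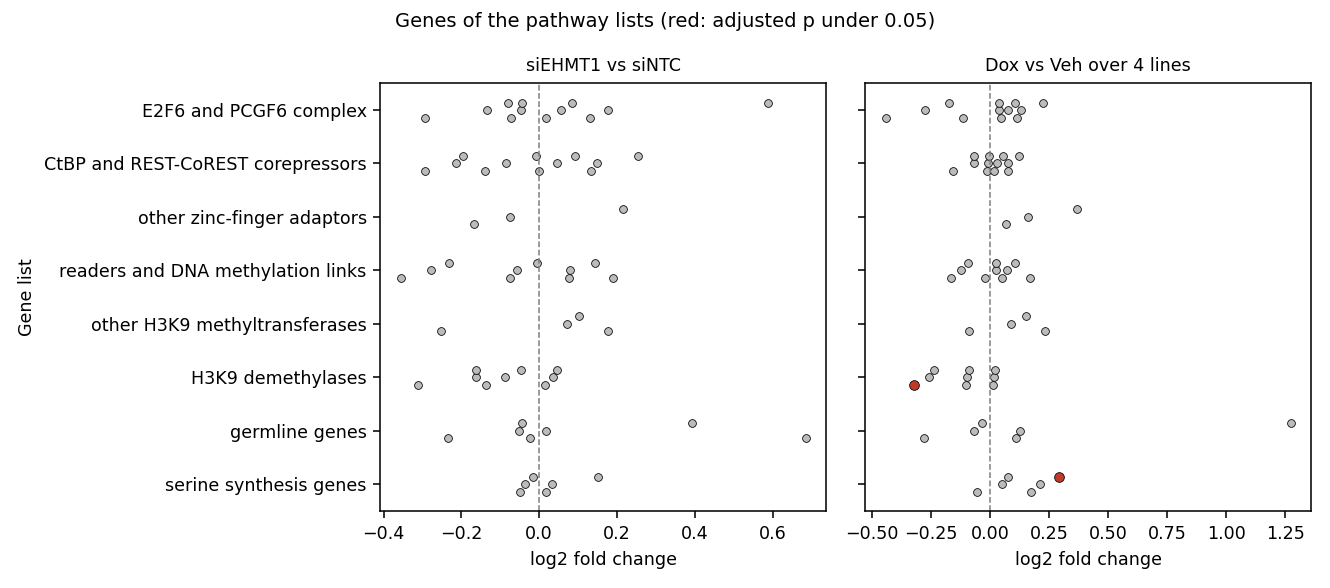
Log2 fold change of each tested gene of 8 lists of functionally related genes, for siEHMT1 against siNTC (left) and Dox against Veh (right). Red points passed an adjusted p of 0.05. No gene is red in the siRNA panel, and in the Dox panel KDM3A (−0.32) and PSAT1 (0.29) are.

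The genes whose levels followed each member most closely over the 8 stable-line conditions are given as a description, by Pearson correlation of log2 CPM among 9082 genes with a mean of at least 10 CPM. The 8 points are Veh and Dox pairs of the same lines, so they are not independent, and library depth differed between conditions. For EHMT1 they were GTPBP10 (r = 0.97), LRRC26 (r = 0.96) and FAM35A (r = 0.94). LRRC26 ranged from 7.42 to 17.2 CPM over the conditions, a far smaller span than that of EHMT1. For EHMT2 they were BTBD9 (r = 0.95), ZMYND12 (r = 0.95) and CCDC101 (r = 0.93). WIZ was followed by HMGA1, an architectural chromatin protein, CDK8, a kinase of the Mediator complex, and SUZ12, a subunit of the polycomb PRC2 complex (r = 0.94 for each). ZNF644 was followed by IRF5 (r = 0.99), PAPD5 (r = 0.97) and ST6GAL1 (r = 0.96), and CDYL by PSMA5 (r = 0.96), PRAME (r = 0.95) and RBM19 (r = 0.94). Among the members themselves, the values farthest from 0 were 0.67 for EHMT2 with WIZ and −0.79 for EHMT1 with CDYL. The value was 0.54 for EHMT1 with ZNF644 and −0.57 for ZNF644 with CDYL. EHMT1 was far higher in Dox than in Veh, so its correlations largely restate a difference between Dox and Veh. For CDYL and ZNF644 that difference did not pass the test.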

How the data were processed

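Total RNA was converted to libraries with a stranded TruSeq kit and sequenced as single-end reads. The submitters' processing notes name FastQC 0.11.9, STAR 2.7.2 and featureCounts 1.6.4 with build hg19/GRCh37, and the paper names limma. The annotation release and strand setting are not given in the sources used here. Both tables deposited by the authors hold counts, that is, unnormalized whole numbers of reads assigned to a gene.

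Counts were scaled by TMM, filtered with filterByExpr and tested by edgeR's quasi-likelihood method (edgeR 4.0.16, R 4.3.3), with Benjamini-Hochberg adjustment over all genes tested. The siRNA samples were fitted alone. The 8 summed stable-line conditions were fitted with line as a block, and the mutants were compared with WT by an interaction term. Ratios of counts have exact binomial 95% intervals, which cover counting error only, as do floors of 3 counts (0.232 to 0.593 CPM). Alternatives used DESeq2 1.42.0 and limma-voom (limma 3.58.1), among others. Gene positions and lengths came from GENCODE release 44 on GRCh37, which held 55538 of the 57773 gene identifiers. In tests on simulated data, a 1-unit log2 change was recovered in 88.9% of 90 changed genes for the siRNA design (14366 genes), 94.4% of 107 for the Dox design (14080 genes) and 41.3% of 104 for the interaction (14113 genes). In the same order, 15, 10 and 9 unchanged genes were called. The simulated counts had the same dispersion for every gene and no differences between lines, unlike the data.

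The genes named were the 5 members, annotated genes overlapping them, every called gene of the other lists and the gene of each list with the largest change in the siRNA and Dox comparisons, and the 3 genes with the highest correlation with each member. The markers KLK3, KLK2, TMPRSS2, FOLH1, HOXB13, FOXA1, PTPRC, CHGA, TP63, KRT5, COL1A1 and VIM were named to check the cell type, and PECAM1 could not be matched to a single row. Results of some LNCaP markers are not reported here. The members and lists were chosen with earlier results of these data known.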

Additional observations from a re-analysis of the deposited data

Results flagged for a closer look

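The EHMT1 response to Dox in the K450RK451R line stood apart from that of the 3 other lines with TMM scaling. Its log2 ratio of Dox to Veh was 2.90, against 3.38 in WT, 3.32 in K450R and 3.34 in K451R, and its gap to the nearest of these divided by the range over the 4 lines was 0.870, above the critical value of Dixon's test at 95%. Chance gives such a gap in about 1 of 20 groups of 4, and 15 groups of 4 values were examined for the members. The gap depends on the scaling. With library totals in place of TMM the ratio was 8.20 in this line against 10.2 to 11.1 in the others, and the gap over the range, computed for this scaling after seeing the data, was 0.721, below the critical value. No model of the double mutant against the 3 other lines was fitted.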

How the results depend on the processing

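EHMT1 passed the test in the siRNA comparison under all 13 alternatives (log2 fold change −1.57 to −1.48) and in the Dox comparison under all 15 (3.18 to 3.35), and EHMT2, WIZ, ZNF644 and CDYL passed in none of the alternatives of any comparison. DESeq2 gave no adjusted p for CDYL with siEHMT1, nor for EHMT2, WIZ, ZNF644 and CDYL in mutants minus WT, so it could not call them there. With the replicate block, in which the siRNA samples share only a number (deviations of same-numbered samples correlated at −0.01 across genes), 118 genes were called in place of 19, and EHMT1 remained called among the 5 members. DESeq2 gave 12 calls for siEHMT1 and no filter on low counts also gave 12, and leaving out 1 sample gave 38 (without siNTC 2) to 110 (without siEHMT1 2), with 80 without siNTC 1 and 60 without siEHMT1 1. For Dox, DESeq2 gave 140 calls in place of 298, the 16 columns as separate samples with a replicate block gave 1900, and leaving out 1 line gave 114 (without K451R) to 501 (without WT), with 122 without K450R. For mutants minus WT, no filter gave 15 calls in place of 23, and leaving out 1 line gave 33 (without K451R) to 101 (without K450R), with 43 without K450RK451R. The causes of these shifts were not tested.

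Direction changed only for values that did not pass, and some of these hung on 1 sample or line. With siEHMT1, leaving out 1 sample gave WIZ −0.010 (without siNTC 2) to 0.12 and ZNF644 −0.34 (without siNTC 1) to 0.14 (without siNTC 2). With Dox, leaving out 1 line gave EHMT2 −0.020 to 0.0033 (without K450RK451R) and WIZ −0.0072 (without K450R) to 0.22 (without K450RK451R). For mutants minus WT it gave WIZ −0.23 to 0.12 (without K450RK451R), and CDYL −0.055 to 0.030 (without K450R), with 0.018 without K451R. EHMT2 with Dox was 0.0035 with upper-quartile normalization and 0.014 with the column numbered 2 of each condition, and CDYL for mutants minus WT was 0.015 with no filter. With library totals in place of TMM, Dox over Veh was 11.1 in K451R and 8.20 in K450RK451R for EHMT1, and 1.06 in K450RK451R for EHMT2. PSAT1 with Dox also did not pass with DESeq2 (adjusted p = 0.0987) or with the column numbered 2 alone (adjusted p = 0.133).

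The ratio of EHMT1 to EHMT2 scales with the length chosen. Both lengths used are those of the endogenous gene, not of the inserted open reading frame, so Dox values per kb are not on the same footing as the others. Per kb of merged exon it was 0.478 and 0.432 in siNTC and 0.162 and 0.178 in siEHMT1, and in WT, K450R, K451R and K450RK451R it was 0.307, 0.316, 0.281 and 0.335 in Veh and 3.17, 3.15, 2.86 and 2.60 in Dox. Per kb of canonical transcript, an alternative chosen after seeing the data, as were the checks of KDM3A and PSAT1, it was 1.13 and 1.03 in siNTC and 0.384 and 0.422 in siEHMT1, and in the same line order 0.729, 0.751, 0.668 and 0.795 in Veh and 7.52, 7.48, 6.78 and 6.17 in Dox. With 2 samples a group, or 1 line for each form of EHMT1, differences between partners smaller than their intervals were not detectable at this depth.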
